A study of Rattus norvegicus with 23 samples.

Results

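The core circadian clock genes described here are 7 genes, chosen by name from the 32552 genes counted in the dorsal striatum: Arntl, Clock, Per1, Per2, Cry1, Nr1d1 and Dbp. They were taken by Ensembl identifier, and each identifier lay on the chromosome given for it in the list used to choose them. The deposited tables do not pair identifiers with symbols, so the symbols rest on that list. For the same reason other clock genes such as Per3, Cry2 and Nr1d2, and marker genes that would check the dissected tissue, were not analysed here. All 7 were among the 16275 genes that passed the filter on low counts.

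The rats were adult male Long Evans rats of wild-type genotype, with 1 sequenced library of dorsal striatal RNA per rat. The study asked how gene expression differs between rats that keep taking methamphetamine (METH) despite footshocks and rats that cut their intake. The 6 Ct rats self-administered saline and the other rats self-administered METH intravenously at 0.1 mg/kg per infusion. Training ran for 22 days by the labels, in 3 sessions of 3 h per day. METH rats then received footshocks on 8 days, the current starting at 0.18 mA and ending at 0.36 mA. There followed 15 days of abstinence, a renewed phase of 12 days, footshocks of 0.30 mA on 3 days and a second abstinence of 15 days. The 6 SR rats were shock-resistant throughout (also called ASR), the 5 RSR rats were sensitive to the first shocks and resistant to the second ones (DSR), and the 6 SS rats were sensitive both times (AS). The METH groups were defined by behavior after the fact and not by assignment. Footshocks were given in the METH groups, so in the comparisons with Ct the drug and the shocks cannot be told apart. The paper reports higher METH intake in SR and RSR than in SS rats during the second shocks. Shocks came with presses for METH. In comparisons of SS with SR or RSR, resistance therefore cannot be told apart from the amount of drug and shocks received. By the paper, rats were killed on the day after the last seeking test, and the time of day is not given in the sources used here. Each rat also carries a code, Grp7 or Grp8, that is not explained. It marked 4 Ct, 3 SR, 2 RSR and 4 SS rats as Grp7 and 2, 3, 3 and 2 as Grp8.

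Clock genes form a feedback loop in nearly every cell. The proteins of Arntl (also called Bmal1) and Clock pair on E-box sequences and turn on Per and Cry genes, whose proteins then return to silence that pair. Nr1d1 encodes REV-ERB alpha, which is switched on by the same pair and represses Arntl, and Dbp encodes a transcription factor that is a direct output of the loop. Arntl RNA therefore usually peaks at the opposite time of day from Nr1d1 and Dbp RNA, and Per1 and Per2 also respond within hours to neuronal activity and hormones.

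Promoter sequences are shown for Arntl and Dbp, whose RNA levels went in opposite directions over the rats, for Nr1d1, whose RNA followed Dbp, and for Per2, which had the largest difference between groups. They are the 250 bases before the RefSeq start on GRCr8, 5′ to 3′ on the gene's strand, at chr1:176766078-176766327 (plus) for Arntl, chr9:99496994-99497243 (minus) for Per2, chr10:84229455-84229704 (minus) for the inner of 2 Nr1d1 entries and chr1:105312006-105312255 (plus) for Dbp. Capitals mark a match to a motif.
Arntl: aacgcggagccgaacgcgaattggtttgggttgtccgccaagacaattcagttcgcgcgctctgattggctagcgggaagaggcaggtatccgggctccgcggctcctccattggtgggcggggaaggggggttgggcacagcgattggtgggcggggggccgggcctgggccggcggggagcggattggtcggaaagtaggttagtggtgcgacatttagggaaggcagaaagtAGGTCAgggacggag
Per2: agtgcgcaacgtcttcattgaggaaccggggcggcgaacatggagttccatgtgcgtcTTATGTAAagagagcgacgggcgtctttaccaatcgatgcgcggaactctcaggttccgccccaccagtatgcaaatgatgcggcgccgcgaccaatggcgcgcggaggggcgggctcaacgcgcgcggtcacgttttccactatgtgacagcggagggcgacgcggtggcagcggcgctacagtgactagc
Nr1d1: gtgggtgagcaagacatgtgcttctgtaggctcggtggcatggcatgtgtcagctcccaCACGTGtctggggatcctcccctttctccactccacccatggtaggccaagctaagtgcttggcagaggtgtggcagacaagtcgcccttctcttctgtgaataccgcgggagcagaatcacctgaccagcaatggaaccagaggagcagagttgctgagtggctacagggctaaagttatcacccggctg
Dbp: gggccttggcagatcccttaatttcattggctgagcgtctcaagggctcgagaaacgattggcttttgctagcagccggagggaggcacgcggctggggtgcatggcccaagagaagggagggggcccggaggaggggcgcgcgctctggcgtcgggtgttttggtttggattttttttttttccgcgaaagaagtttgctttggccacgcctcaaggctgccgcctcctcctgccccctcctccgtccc

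These windows were searched on both strands for 5 motifs of clock and activity-driven transcription. They were the E-box CACGTG, the D-box TTATGTAA to which Dbp protein binds, the core AGGTCA of the element shared by REV-ERB and ROR proteins, the cAMP response element TGACGTCA, and its inner part TGACG, which overlaps the full element. The Arntl window held AGGTCA 15 to 10 bases before the start, a motif present in 14.1% of all 33469 promoter windows of the same length. The Per2 window held TTATGTAA 192 to 185 bases before the start, present in 0.828% of windows. The inner Nr1d1 window held CACGTG 191 to 186 bases before the start, present in 5.59% of windows. No match was found in the Dbp window, the outer Nr1d1 window, the Per1 window or either Clock window, which says only that these letters are not in these stretches. TGACGTCA was present in 1.59% of all windows and TGACG in 18.2%, and neither was found for these genes. Cry1 was not analysed here for promoter sequence. A match describes letters and is not evidence of binding.

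In count terms the genes were well covered, with 453 to 8593 reads per gene and library and 18967015 to 28137676 counts per library. Intervals and p-values therefore reflect mainly the differences between rats. Expression is given as CPM (counts scaled for depth), which is a gene's count divided by its library's total after TMM scaling, and 0 pairs of libraries held identical values. The mitochondrial share of counts was 11.6% to 19.6%, and it was highest in the SS rat Grp7-R1. Levels can be compared between genes only per length. In RPKM, which divides CPM by exon length in kilobases, Dbp was the most abundant at 140.1 ± 23.1 (SD, n = 23), and Nr1d1 at 30.6 ± 4.05 and Per1 at 23.8 ± 3.83 came next. The other 4 overlapped over the rats, with 7.37 to 13.6 RPKM for Arntl, 6.75 to 11.2 for Cry1 and 7.92 to 10.8 for Clock, and a mean of 9.85 RPKM for Per2. In bulk tissue a lower level can mean fewer cells of a type or less RNA per cell, which cannot be told apart here.

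Arntl, an activator of the loop, (ENSRNOG00000014448) lies at chr1:178039063-178137465 on the plus strand of Rnor6.0, the build of the deposited files. Its level over the 6 Ct rats ran from 21.9 to 40.3 CPM with a median of 28.2, over the SR rats from 25.1 to 30.0 (27.4), and over the SS rats from 26.9 to 34.2 (30.9). The 5 RSR rats measured 25.3, 28.5, 31.9, 33.5 and 38.4 CPM. The Ct rats held both the lowest and the highest value of the 23 rats, and every group overlapped every other. Clock, the partner of Arntl and the steadiest of the 7 genes, (ENSRNOG00000002175) lies at chr14:34446616-34502218 on the plus strand. Its level was 74.8 to 91.7 CPM in Ct (85.9), 74.6 to 91.6 in SR (86.5) and 81.3 to 91.8 in SS (86.9), and 83.6, 89.0, 90.2, 90.3 and 101.7 in the RSR rats. The RSR rat Grp7-R7 was above all other rats and the remaining values overlapped.

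Per1, a repressor that is also an immediate response gene, (ENSRNOG00000007387) lies at chr10:55687050-55695994 on the plus strand. It measured 93.3 to 127.3 CPM in Ct rats (median 111.4), 75.7 to 110.3 in SR rats (96.8) and 74.0 to 114.8 in SS rats (81.9). The RSR rats measured 78.7, 85.0, 91.4, 101.1 and 101.9 CPM. The Ct rats were the highest group, and 5 of the 6 SS rats lay below every Ct rat, as did 3 of the 5 RSR and 3 of the 6 SR rats. The exception among the SS rats was Grp8-L5 at 114.8 CPM.

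Per2, the other Period repressor, (ENSRNOG00000020254) lies at chr9:98555169-98597359 on the minus strand. It measured 48.2 to 79.8 CPM in Ct rats (median 63.2), 44.9 to 67.1 in SR rats (59.9) and 33.7 to 56.0 in SS rats (46.0). The RSR rats measured 43.9, 57.0, 63.1, 68.1 and 81.1 CPM. The SS rats were the lowest group, with 3 of 6 below every Ct rat, and 4 of the 5 RSR rats lay above every SS rat. Cry1, a cryptochrome that joins the Period proteins in repression, (ENSRNOG00000006622) lies at chr7:24534615-24634097 on the plus strand. It measured 19.7 to 30.1 CPM in Ct (28.2), 23.5 to 32.7 in SR (28.9), 25.8 to 32.5 in SS (30.0), and 25.9, 26.7, 28.6, 31.2 and 31.5 in RSR rats. The lowest values belonged to the Ct rats Grp7-R6 and Grp7-R12 and the groups otherwise overlapped.

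Nr1d1, the repressor of Arntl, (ENSRNOG00000009329) lies at chr10:86683875-86690815 on the minus strand, and 263 of its exon bases are shared with a gene on the opposite strand. The strand setting of the counting is not given in the sources used here, so how reads in the shared bases were assigned is not known. It measured 68.5 to 95.1 CPM in Ct rats (median 86.4), 68.1 to 85.1 in SR rats (78.3) and 65.5 to 101.9 in SS rats (72.8). The RSR rats measured 65.1, 67.3, 70.5, 73.0 and 87.1 CPM. The Ct group had the highest median, yet the Ct rat Grp7-R12 was among the low values and the SS rat Grp8-L5 was the highest of all. Dbp, the output factor, (ENSRNOG00000021027) lies at chr1:101687855-101692846 on the plus strand. It measured 160.9 to 291.4 CPM in Ct (260.1), 186.1 to 261.0 in SR (242.2), 204.4 to 318.5 in SS (218.1), and 187.2, 214.8, 218.8, 231.8 and 311.1 in RSR rats. Both its lowest value (Ct Grp7-R12) and its highest (SS Grp8-L5) came from the same rats that stood at the ends of their own groups for Nr1d1.

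**Figure D1:**
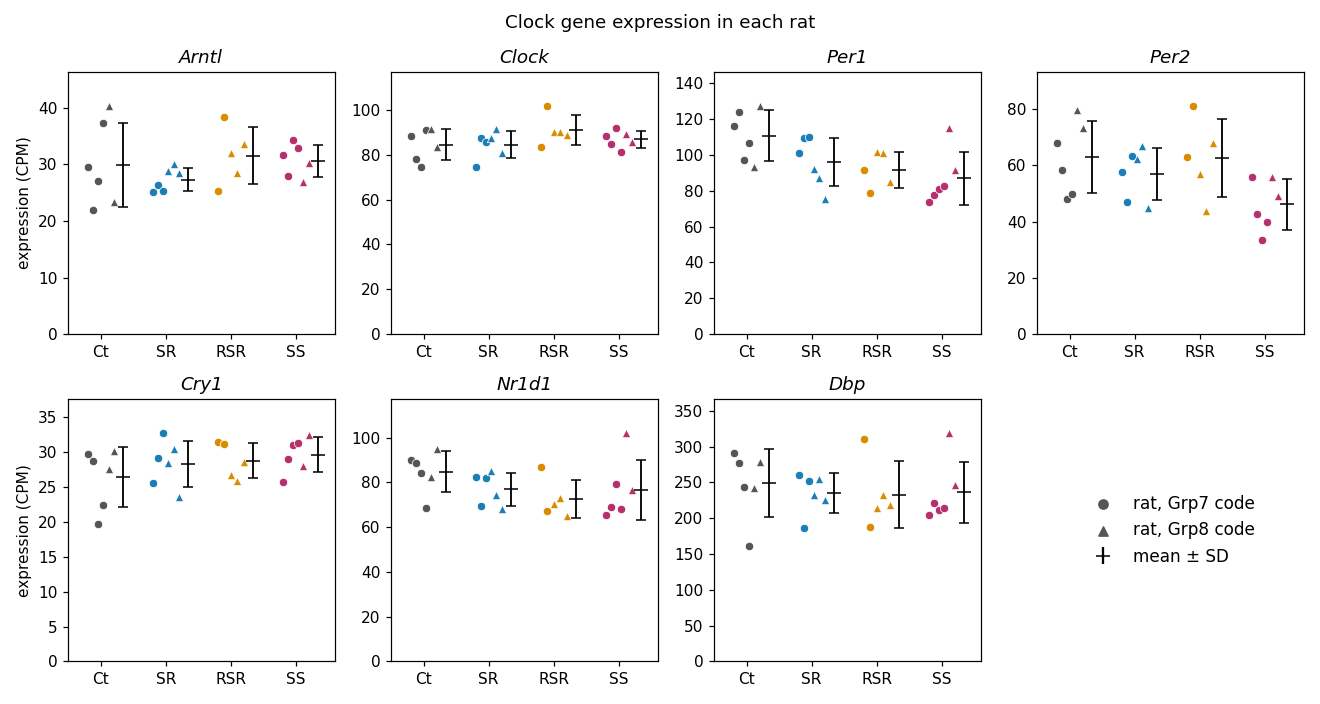
Expression (CPM, linear axis from 0) of the 7 clock genes in each of the 23 rats by group, with circles for rats coded Grp7, triangles for Grp8, and a bar for the group mean ± SD. For Per1, 5 of 6 SS rats lie below every Ct rat, and for Per2, 4 of 5 RSR rats lie above every SS rat. The ranges of the groups overlap for every gene.

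Within groups, the spread between rats differed among the genes. The SD on the log2 scale was 0.29 for Per2, 0.26 for Dbp, 0.23 for Arntl, 0.20 for Per1, 0.18 for both Cry1 and Nr1d1, and 0.10 for Clock. The median over all genes tested was 0.19. Per2 was at the 67.8th percentile of spread among all genes tested, Dbp at the 62.7th, Arntl at the 57.5th, Per1 at the 51.4th, Nr1d1 at the 46.4th, Cry1 at the 46.0th and Clock at the 16.8th.

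The comparison of SS with Ct rats asks what differs in METH rats that cut their intake under punishment. Per1 and Per2 were lower in SS rats, and the other 5 genes did not pass an unadjusted p of 0.05. Per1 averaged 87.0 ± 14.9 CPM in SS (SD, n = 6) against 110.7 ± 14.1 in Ct (SD, n = 6), a log2 fold change of -0.35 (SE 0.11, edgeR's adjusted p = 0.0910, by Benjamini-Hochberg over every gene tested). Per2 averaged 46.2 ± 9.02 CPM against 62.9 ± 12.8, a log2 fold change of -0.44 (SE 0.15, edgeR's adjusted p = 0.114). With 2 of 7 genes called, the count should be read against the 21.4% of all tested genes called in this comparison (11.8% of all tested genes called and lower in SS), and it is close to that share. Neither gene passed an adjusted p of 0.05 in edgeR, whereas Per1 did with DESeq2 (adjusted p = 0.0365 on all groups). The share of all genes passing in that DESeq2 fit was not counted, so this call has no background beside it. A two-sided exact permutation test on log2 CPM gave p = 0.0195 for Per1 and 0.0260 for Per2, with an adjusted p of 0.409 for both over the 42 tests of 7 genes in 6 comparisons. The remaining log2 fold changes in SS vs Ct were 0.17 for Cry1, -0.15 for Nr1d1, -0.074 for Dbp, 0.038 for Clock and 0.036 for Arntl. Over the 7 genes the median log2 fold change was -0.074, beside 0.015 over all genes.

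Both differences were present with each rat left out in turn (23 of 23 at an unadjusted p under 0.05 for each gene). The rats of the 2 codes were also compared separately. For Per1 the log2 difference was -0.49 among Grp7 rats and -0.086 among Grp8 rats, and for Per2 it was -0.39 and -0.55. The SS rat Grp8-L5 was the one SS rat with Per1 in the Ct range. Without it the log2 fold change of Per1 was -0.45 (edgeR's adjusted p = 0.104), and Nr1d1 also passed the unadjusted threshold (-0.26), as it did without Ct Grp7-R12 (-0.21). Without SS Grp7-L10, the SS rat with the highest Per2 level, the adjusted p of Per2 was 0.0472 (log2 fold change -0.53, edgeR). Leaving out that rat widens the difference by construction, and the share of all genes passing without it was not counted.

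Per2 also moved with the largest axis of variation in the whole data. The first principal component of the 16275 genes held 29.6% of their variance, and the Pearson r of Per2 with it was 0.76, against -0.16 to 0.46 for the other 6 genes. The sign of a component is arbitrary, and it was set here so that Per2 is positive. The size of each r does not depend on that choice, but which end is called low does. SS rats had low scores on it (-38.0 to 0.326, median -26.0) and Ct rats scores of -25.2 to 45.6 (median 14.9). With this component as a covariate, a fit chosen after seeing the data, the log2 fold change of Per2 in SS vs Ct was -0.14 (edgeR's adjusted p = 0.859), that of Per1 was -0.55 (adjusted p = 0.143) and that of Arntl was 0.31 (adjusted p = 0.754). In that fit Per1 and Arntl passed the unadjusted threshold and Per2 did not. The component was computed from the same rats and from genes that include Per2. What the component reflects was not tested.

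**Figure D2:**
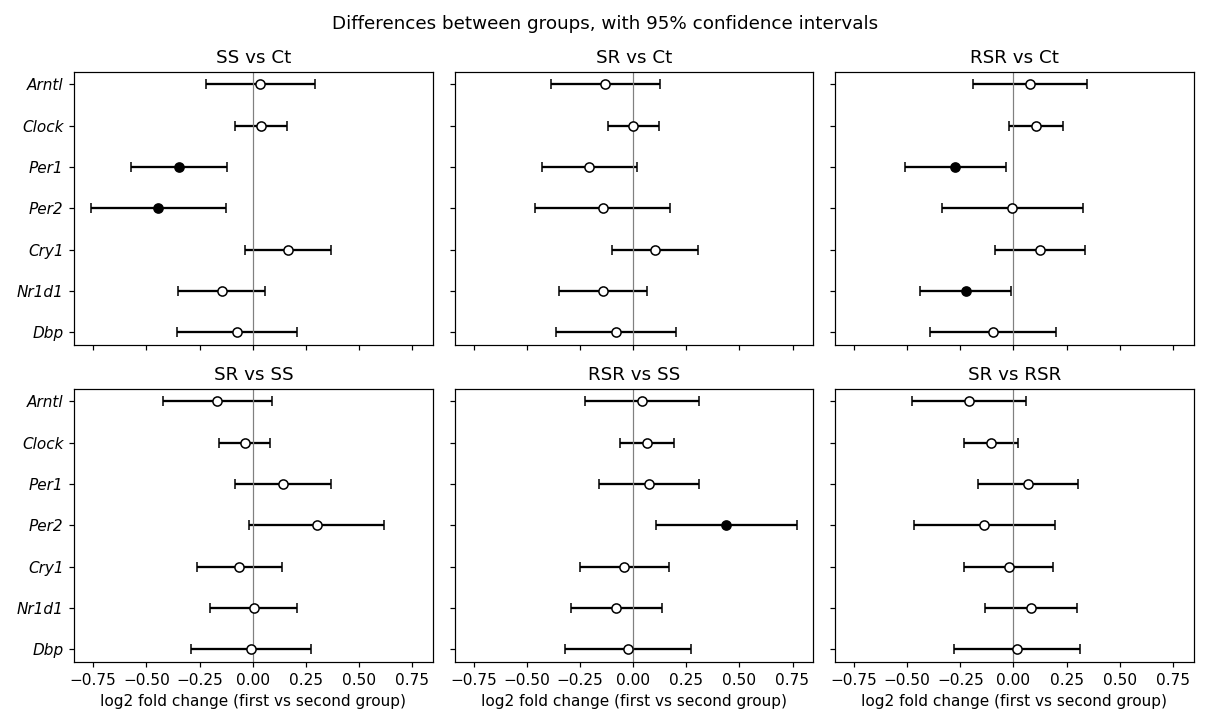
Log2 fold change of each clock gene (x axis) in the 6 comparisons, first group against second, with 95% confidence intervals from edgeR's fit of all 23 rats and filled points where the unadjusted p is under 0.05. Filled points are Per1 and Per2 in SS vs Ct, Per1 and Nr1d1 in RSR vs Ct, and Per2 in RSR vs SS.

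The comparison of RSR with Ct rats concerns resistance that appeared late. Per1 was lower in RSR rats at 91.6 ± 10.1 CPM (SD, n = 5), a log2 fold change of -0.27 (SE 0.11), and Nr1d1 was lower at 72.6 ± 8.64 CPM against 84.9 ± 9.18 in Ct, a log2 fold change of -0.22 (SE 0.10). Both passed edgeR's unadjusted threshold. These 2 of 7 genes stand beside 4.63% of all genes called in this comparison (1.87% lower in RSR). The share is higher for the clock genes than for all genes, but both adjusted p-values were 0.982 in edgeR. Exact permutation gave p = 0.0390 for Per1 and 0.0693 for Nr1d1, with adjusted p of 0.409 and 0.442 over the 42 tests. The call for Per1 was lost without Ct Grp8-R11 (log2 fold change -0.23), RSR Grp7-R7 (-0.23) or RSR Grp8-R1 (-0.25), and that for Nr1d1 without any one of Ct Grp7-L7, Ct Grp7-R5, Ct Grp8-R11, RSR Grp7-R7, RSR Grp8-L4, RSR Grp8-L9 or RSR Grp8-R1 (log2 fold changes from -0.23 to -0.19). The log2 fold change of Per2 was -0.0061 (95% interval -0.34 to 0.32). Its mean was higher in RSR among Grp7 rats (0.36) and lower among Grp8 rats (-0.46).

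RSR and SS rats had both been sensitive to the first shocks, and their comparison asks what separates the rats that later resisted. Per2 was higher in RSR rats at 62.7 ± 13.7 CPM (SD, n = 5), a log2 fold change of 0.44 (SE 0.16, edgeR's adjusted p = 0.123). This was 1 of 7 genes, below the 25.3% of all genes called in the same comparison (13.3% higher in RSR). Exact permutation gave p = 0.0390 (adjusted p = 0.409 over the 42 tests). The log2 difference was 0.76 among Grp7 rats and 0.082 among Grp8 rats, and the call was lost without RSR Grp7-R7, the rat with the highest Per2 level (0.33). Without RSR Grp8-L9, the RSR rat with the lowest Per2 level, the log2 fold change was 0.55 (edgeR, adjusted p = 0.0360). The Per2 level of that rat lay within the SS range, so leaving it out widens the difference by construction. The share of all genes passing without it was not counted. With the first principal component as a covariate, the difference in Per2 was 0.069 and did not pass, and Per1 passed the unadjusted threshold with a higher level in RSR (0.30), both with edgeR's adjusted p = 0.999. The comparison shares its SS rats with SS vs Ct, and RSR vs Ct shares the Ct rats, so the low Per2 of SS rats enters both results.

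No difference between SR rats and another group passed edgeR's test for these genes. No clock gene had an unadjusted p under 0.05 in SR vs Ct, SR vs SS or SR vs RSR (0 of 7 each, edgeR), beside 4.92%, 8.65% and 4.29% of all genes. Per1 averaged 96.0 ± 13.5 CPM in SR rats in SR vs Ct (log2 fold change -0.21, 95% interval -0.43 to 0.019, edgeR's adjusted p = 0.949). Per2 in SR vs SS had a log2 fold change of 0.30 (95% interval -0.016 to 0.62, edgeR's adjusted p = 0.576). Both were near enough to the threshold for single rats to decide them. Per1 in SR vs Ct passed without any one of Ct Grp7-R6, Ct Grp8-L11, SR Grp7-R4, SR Grp7-R10 or SS Grp8-L5 (log2 fold changes from -0.25 to -0.21), and Per2 in SR vs SS without any one of Ct Grp8-L11, RSR Grp7-R7, RSR Grp8-L9, SR Grp7-R4, SR Grp8-R8, SS Grp7-L10 or SS Grp8-L5 (0.31 to 0.38). Without SS Grp8-L5, Per1 was also higher in SR than in SS rats at the unadjusted threshold (0.25). With only the SR and SS rats in the fit, Per2 (0.31) and Arntl (-0.16) passed the unadjusted threshold in both edgeR and DESeq2. In that edgeR fit the adjusted p was 0.421 for Per2 and 0.417 for Arntl. The share of all genes called with only these rats was not counted. Exact permutation of Arntl in SR vs SS gave p = 0.0498 (adjusted p = 0.418 over the 42 tests), with 3 of 6 SR rats below every SS rat.

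Across all 4 groups at once, Per1 (edgeR's adjusted p = 0.280) and Per2 (adjusted p = 0.292) passed the unadjusted threshold, 2 of 7 genes beside 15.6% of all genes. None of the 5 differences called between 2 groups reached 1.5-fold, the largest being 1.36-fold. After adjustment over all genes 0 clock genes passed in any of these tests in edgeR, and 0 of the 16275 genes did. Dbp had the largest p of the 7 genes (edgeR's adjusted p = 0.950). Its group means were 248.7 ± 47.5 CPM in Ct, 235.3 ± 27.8 in SR (SD, n = 6 each), 232.7 ± 46.7 in RSR (SD, n = 5) and 236.3 ± 42.8 in SS (SD, n = 6).

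Rats of one group also differed from each other, and these differences were shared by several clock genes. Over the 23 rats, 6 of the 21 pairs of clock genes were correlated at an adjusted p under 0.05, 3 positively and 3 negatively (Pearson r of log2 CPM, 100000 permutations, Benjamini-Hochberg over the 21 pairs). The share of pairs of other genes that pass the same threshold was not computed, so this count has no background beside it. Nr1d1 and Dbp varied together most closely, with r = 0.82 (p = 1e-05, the smallest that the permutations can give, adjusted p = 0.00021) and Spearman's rho = 0.83 (adjusted p = 0.00021). The relation was also present after group means were removed (r = 0.85), within Grp7 rats (0.86) and Grp8 rats (0.87), and without the 2 rats farthest from the median (0.77).

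Arntl and Clock, the activator pair, were positively correlated (r = 0.67, permutation p = 0.00042, adjusted p = 0.00392, rho = 0.73), with r = 0.66 after centring on group means, 0.73 and 0.56 within the 2 codes and 0.58 without the 2 rats farthest from the median. Per1 followed Nr1d1 (r = 0.67, permutation p = 0.00056, adjusted p = 0.00392, rho = 0.68), with 0.61 after centring, 0.62 and 0.76 within the codes and 0.58 without the farthest rats. Arntl ran opposite to Dbp, Per1 and Nr1d1. Its r was -0.61 with Dbp (permutation p = 0.00219, adjusted p = 0.0115, rho = -0.62), -0.53 with Per1 (p = 0.00988, adjusted p = 0.0349, rho = -0.50) and -0.53 with Nr1d1 (p = 0.00998, adjusted p = 0.0349, rho = -0.56). For these 3 pairs r was -0.64, -0.59 and -0.56 after centring, -0.72, -0.55 and -0.64 within Grp7, -0.49, -0.50 and -0.43 within Grp8, and -0.66, -0.53 and -0.62 without the farthest rats. The pair of Arntl and Per1 had an adjusted p of 0.0528 by rho and 0.0503 without the farthest rats, with r at -0.53 both with and without them. It also exceeded 0.05 without any one of Ct Grp7-R5, Ct Grp8-R11, RSR Grp7-R7, RSR Grp8-R1, SR Grp7-R10, SS Grp7-R2 or SS Grp7-R9 (r from -0.51 to -0.45). The pair of Arntl and Nr1d1 did so without any one of Ct Grp7-R5, Ct Grp7-R12, Ct Grp8-R11, RSR Grp7-L2, RSR Grp7-R7, RSR Grp8-R1, SR Grp7-R10 or SS Grp7-R9 (r from -0.52 to -0.47). Within the codes, which hold 13 and 10 rats, the adjusted p of these and the other 4 pairs was under 0.05 for Nr1d1 with Dbp in both codes, and for Arntl with Clock and Arntl with Dbp in Grp7.

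Per2 and Cry1 were in none of the 6 pairs. The r of Per2 was 0.26 with Per1 (permutation, adjusted p = 0.334), 0.30 with Dbp (adjusted p = 0.334), 0.28 with Nr1d1 (adjusted p = 0.334) and 0.051 with Arntl (adjusted p = 0.859). After regression of each gene on the first principal component, a step chosen after seeing the data, Per2 was correlated with 5 of the other 6 genes. Its r was then 0.55 with Per1, 0.55 with Nr1d1, 0.56 with Dbp, 0.52 with Cry1 and -0.52 with Arntl (permutation, adjusted p from 0.0193 to 0.0203), and 11 of 21 pairs passed in place of 6. The 6 pairs named above kept their sign and an adjusted p under 0.05 after the same step. How often pairs of other genes pass before or after that step was not computed.

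**Figure D3:**
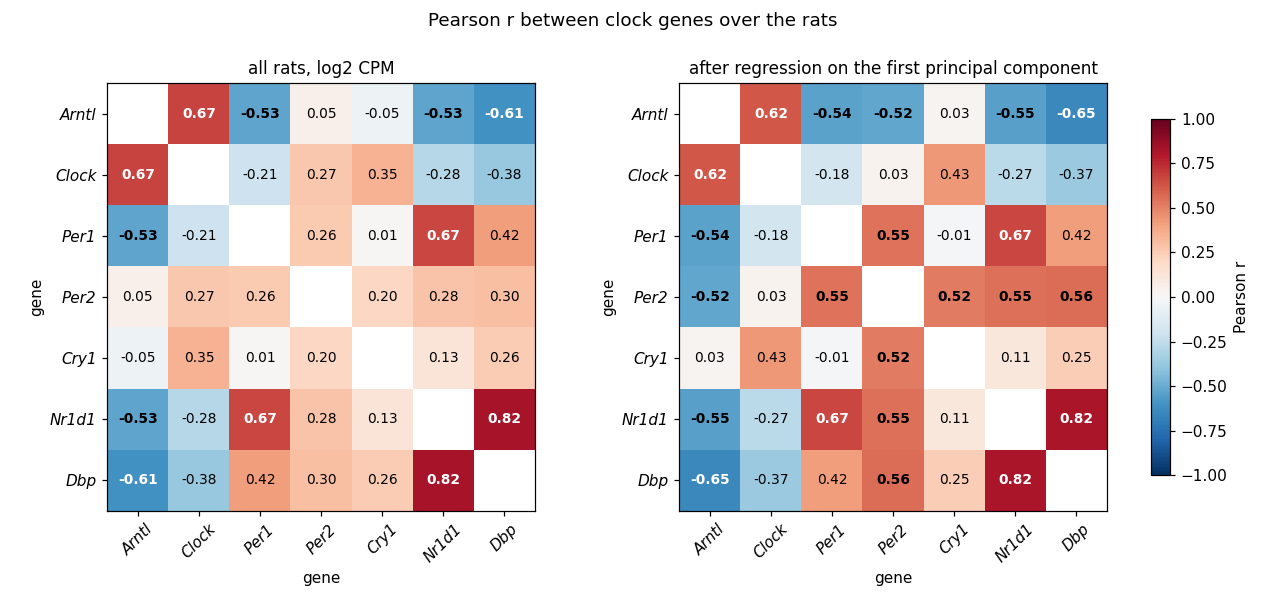
Pearson r between each pair of the 7 clock genes (both axes) over 23 rats, from log2 CPM (left) and after regression of each gene on the first principal component (right), with bold values where the adjusted permutation p is under 0.05. Arntl is positive with Clock and negative with Per1, Nr1d1 and Dbp in both panels, and Per2 joins the second set in the right panel.

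The 2 rats with the lowest and the highest ratio of Dbp to Arntl, chosen after their values were seen, were both saline rats. The Ct rat Grp7-R12 combined the lowest Dbp level of all rats (160.9 CPM) and low Nr1d1 (68.5) with high Arntl (37.3). Its ratio of Dbp to Arntl in CPM was 4.32, the lowest of the 23. Per1 in that rat was not low, at 106.7 CPM beside a median of 93.3 over all rats. The Ct rat Grp7-R5 had 277.2 CPM of Dbp, 88.7 of Nr1d1, 124.2 of Per1 and the lowest Arntl level of all (21.9), and its ratio was the highest, 12.7. The ratio ran from 4.32 to 12.7 in Ct, 7.05 to 10.4 in SR, 4.88 to 12.3 in RSR and 6.19 to 11.8 in SS, and all groups overlapped. These ratios describe single rats, and since the time of death of each rat is not given, their relation to time of day was not tested.

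**Figure D4:**
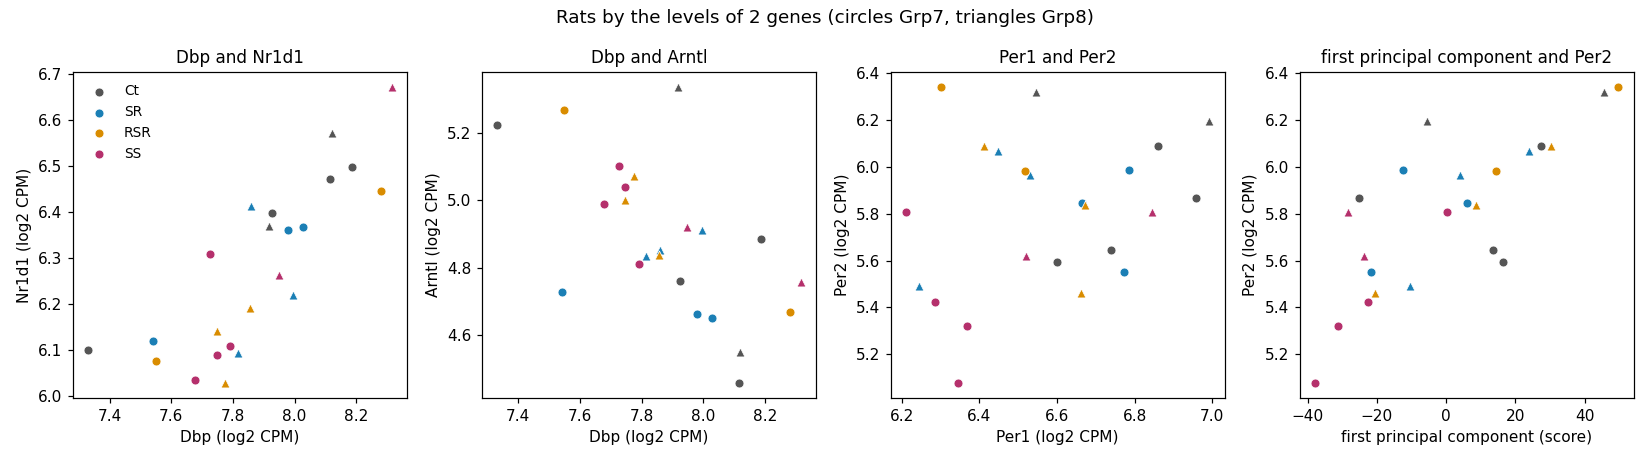
Each point is 1 rat, coloured by group (circles Grp7, triangles Grp8), for Nr1d1 against Dbp, Arntl against Dbp, Per2 against Per1 (all log2 CPM), and Per2 against the first principal component score. Nr1d1 rises with Dbp (r = 0.82), Arntl falls with Dbp (r = -0.61), and Per2 follows the component (r = 0.76), whose sign was set to make Per2 positive.

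The likeness between clock genes was also set beside that of the other genes. All genes tested were ranked by their Pearson r with each clock gene over the 23 rats, as a description without a test. Among 16274 other genes, Dbp ranked 2 for Nr1d1 and Nr1d1 ranked 3 for Dbp. Nr1d1 ranked 7 for Per1, Per1 ranked 13 for Nr1d1, and Clock ranked 16 for Arntl, while Arntl ranked 132 for Clock. At the other end, Arntl was number 36 from the lowest r for Dbp, 71 for Per1 and 81 for Nr1d1, and in the other direction Dbp was number 122, Per1 438 and Nr1d1 441 from the lowest for Arntl. The gene most like both Nr1d1 (r = 0.90) and Dbp (r = 0.85) was ENSRNOG00000042717, at chr2:197987705-197991574 on the minus strand, with a mean of 12.0 CPM. It is listed by identifier because the tables give no symbol. Per2 was different, with an absolute r over 0.7 with 935 genes, against 3 to 108 genes for the other clock genes, and Dbp ranked only 4462 for it.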

How the data were processed

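Dorsal striatal RNA of 23 rats was sequenced by the authors, with poly(A) enrichment and 1 library per rat. The authors trimmed the reads (Trimmomatic 0.36), mapped them to Rnor6.0 (STAR 2.5.2b) and counted reads in exons (featureCounts of Subread 1.5.2), and deposited raw, unnormalized counts for each gene. Groups and rat codes were taken from the sample labels.

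Computed here in R 4.3.3 were TMM factors, CPM, RPKM and edgeR 4.0.16 quasi-likelihood tests, on one fit of the 4 groups together (residual degrees of freedom 19), after filterByExpr (minimum count 10, minimum total count 15). P-values were adjusted by Benjamini-Hochberg over all 16275 genes tested. Genes were called at an unadjusted p under 0.05, without the 1.5-fold threshold that the study adds to it, and separately at an adjusted p under 0.05. Each SE was derived from the fold change and its F value. Exact permutation tests were two-sided, and correlations used log2 CPM with a prior count of 2. The tests were checked on simulated counts. The methods of the study use DESeq2, which was run as an alternative (version 1.42.0) beside RLE factors, no filter, covariates, fits of 2 groups, each code alone and each rat left out. The members and lists were chosen with earlier results of these data known. All clock genes were named, and the rats at the ends of a range were chosen after their values were seen. Each rat is a separate replicate by the labels. RefSeq promoters (GRCr8) were taken for 6 of the 7 genes by a fixed list of gene identifiers, and the Arntl entry carries the symbol Bmal1.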

Additional observations from a re-analysis of the deposited data

Results flagged for a closer look

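Dbp in the SS rat Grp8-L5 stood apart from the other rats of its group. It measured 318.5 CPM, and the other 5 SS rats 204.4 to 246.9 CPM, a gap of 0.628 of the group's range against a critical value of 0.625 in Dixon's test. It was the only one of 28 sets of values (7 genes in 4 groups) so marked, where chance gives about 1.4. The same rat had the highest Nr1d1 (101.9 CPM) and Per1 (114.8 CPM) and the lowest Arntl (26.9 CPM) of the SS group.

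In 6 of 42 tests the difference between groups itself differed between rats coded Grp7 and Grp8 (interaction term in edgeR, unadjusted p under 0.05). Of all genes tested, 2.85% had such a p in SS vs Ct, 2.30% in SR vs Ct, 5.54% in RSR vs Ct, 4.02% in SR vs SS, 7.07% in RSR vs SS and 9.46% in SR vs RSR, and of the 7 clock genes 1, 0, 1, 1, 2 and 1 did. These values are from edgeR, and none passed adjustment over all genes, with adjusted p-values of at least 0.511, and groups within a code hold 2 to 4 rats. Given as the log2 difference in Grp8 minus that in Grp7, Per1 had 0.40 in SS vs Ct (adjusted p over 0.999), -0.72 in SR vs SS (adjusted p = 0.999) and -0.50 in SR vs RSR (adjusted p = 0.511). In SR vs SS, Per1 was higher in SR rats by 0.44 within Grp7 and differed by -0.28 within Grp8. Per2 had -0.80 in RSR vs Ct (adjusted p = 0.735) and -0.64 in RSR vs SS (adjusted p = 0.676). Nr1d1 had -0.50 in RSR vs SS (adjusted p = 0.676), with 0.13 within Grp7 and -0.35 within Grp8. What the code stands for is not given in the sources used here.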

How the results depend on the processing

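No paired analysis was possible because no rat code is shared between groups. Of the 5 differences called, none changed sign under any alternative. Per1 in SS vs Ct passed an unadjusted p of 0.05 in all 10 tests other than the leave-one-out fits (log2 fold changes -0.55 to -0.33), and Per2 in SS vs Ct and in RSR vs SS passed in 9 of 10, the exception being the first principal component as a covariate. Per1 in RSR vs Ct passed in 10 of 10 and Nr1d1 in RSR vs Ct in 8 of 10. Counts of clock genes called moved in few cases. DESeq2 gave 1 at an adjusted p in SS vs Ct in place of 0, on all groups and on 2 groups. The mitochondrial share as a covariate gave 1 in RSR vs Ct in place of 2, and edgeR and DESeq2 on only the 2 groups gave 2 in SR vs SS in place of 0. For these alternatives, and for fits with 1 rat left out, the share of all genes called was not counted. Leaving out 1 rat gave 0 to 1 called in SR vs Ct, 0 to 2 in RSR vs Ct and in SR vs SS, 0 to 1 in RSR vs SS, 1 to 2 over the 4 groups, and 0 to 1 at an adjusted p in SS vs Ct and in RSR vs SS. Over the 4 groups the count was 1 without Ct Grp8-R11, SS Grp7-R1, SS Grp7-R2 or SS Grp7-R9. Correlated pairs numbered 3 within Grp7, 1 within Grp8 and 11 after regression on the first principal component, in place of 6, and 4 to 7 with 1 rat left out. The smaller numbers of rats within a code are part of the construction of those values, and the cause of the other changes was not tested.

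Of 106 values counted as changing sign, 0 belonged to a called result and 1 passed its own test. That 1 was the r of Arntl and Per2 after regression on the first principal component (-0.52). Fold changes within each code had no test and could enter this count only for called differences. Other fold changes also changed sign within a code and are not among the 106. Per2 in RSR vs Ct, for example, was -0.0061 in the main fit and 0.36 within Grp7. Per1 in SR vs SS was 0.14 in the main fit and -0.28 within Grp8. In SR vs Ct, Clock was -0.0031 with RLE factors, -0.0032 with no filter, -0.0049 with the Grp number as a covariate, -0.0035 with edgeR on 2 groups, and -0.0032 and -0.0014 with DESeq2 on all and on 2 groups. In SR vs SS, Nr1d1 was -0.0021 with the Grp number as a covariate, and Dbp was 0.0016 with RLE factors, 0.0017 with no filter, 0.0016 with DESeq2 on all groups and 0.0020 in the permutation test. With Dbp as a covariate Per2 was 0.040 in RSR vs Ct, and with the first principal component as a covariate Arntl was -0.25, Clock -0.014 and Dbp 0.041 in RSR vs SS. The r of Arntl and Per2 was -0.12 within Grp7 and -0.36 without the farthest 2 rats. That of Arntl and Cry1 was 0.028 after regression on the component, that of Clock and Per1 0.099 within Grp8, and that of Clock and Cry1 -0.018 without the farthest 2 rats. For Per1 and Cry1 it was -0.029 by rho, -0.11 within Grp7, -0.0013 with RLE factors, -0.0096 after the component and -0.070 without the farthest 2 rats. With 1 rat left out, log2 fold changes of Arntl ran from -0.012 to 0.18 in RSR vs Ct, -0.035 to 0.12 in RSR vs SS and -0.061 to 0.12 in SS vs Ct. Those of Clock ran from -0.032 to 0.029 in SR vs Ct, -0.056 to 0.0021 in SR vs SS and -0.0043 to 0.056 in SS vs Ct, and those of Cry1 from -0.067 to 0.00038 in RSR vs SS and -0.062 to 0.033 in SR vs RSR. Those of Dbp ran from -0.14 to 0.086 in RSR vs SS, -0.046 to 0.14 in SR vs RSR and -0.033 to 0.11 in SR vs SS, those of Nr1d1 from -0.14 to 0.024 in RSR vs SS and -0.028 to 0.11 in SR vs SS, and those of Per2 from -0.12 to 0.093 in RSR vs Ct. The r of Arntl and Cry1 ran from -0.16 to 0.092, of Arntl and Per2 from -0.12 to 0.18 and of Per1 and Cry1 from -0.099 to 0.077. Depth limits these genes little, and the precision is set by 5 or 6 rats per group.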
